A study of Mus musculus with 4 samples.

Results

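The genes described here are the Rab GTPases and the other vesicle trafficking genes of the Arf, Vamp, Stx, Snx, Vps and Syt families. They were chosen by symbol alone, from the array spots that the platform table assigns to 1 gene. Of the 10225 genes on the arrays, 124 were members, carried by 245 spots. They comprised 46 Rab GTPases, 6 genes named after a Rab partner (such as Rab11fip4 and Rab3gap1), 4 Arf GTPases, 4 Vamp, 11 Stx, 4 Syt, 19 Snx and 30 Vps genes. A single spot carried 57 of the members, and the most spots for any member were 8, for Vps51. The choice by symbol fits the name for most members, but Vps72 is better known as a subunit of chromatin remodelling complexes.

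Spinal cords came from adult female SJL/J mice. The AT-EAE mice had adoptive-transfer experimental autoimmune encephalomyelitis, in which recipients are given T cells that react to myelin as a model of multiple sclerosis, and the control mice are described as control only. Cords of 2 mice were pooled for an RNA extract, and both channels of a cDNA array took extracts of 1 group. With 2 control and 2 AT-EAE arrays, 4 extracts represented a group (extracts 1 and 2 on its array 1); the time after transfer is not given in the sources used here.

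Each deposited value was a signed log ratio between the channels of 1 array, taken as log2. Base and numerator channel are not stated in the labels or the files. Such a ratio compares 2 extracts of 1 group, so it says nothing of AT-EAE levels against control levels, and a sign can be read only against other genes of that array. The filter that left spots without a value is not given either, so a missing value is described as such and not as a lack of expression. In whole cord, fewer cells of a type and less RNA per cell cannot be told apart. Where 4 values are listed, they are those of control array 1, control array 2, AT-EAE array 1 and AT-EAE array 2, in that order; where 3 are listed, AT-EAE array 2 had none.

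Rab GTPases are molecular switches: bound to GTP they sit on a particular membrane and recruit the proteins that move, tether and fuse vesicles there. Fusion itself is driven by SNARE proteins, the Vamp proteins on the vesicle and the syntaxins (Stx) on the target membrane, with synaptotagmins (Syt) as calcium sensors. Arf GTPases recruit coats at the Golgi, sorting nexins (Snx) and the retromer return cargo from endosomes, and Vps proteins form the retromer, the HOPS and CORVET tethers, the ESCRT machinery and the GARP complex. In spinal cord this machinery serves transmitter release, axonal transport, phagocytosis and the delivery of myelin proteins.

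The arrays differed in how many values they held. AT-EAE array 2 stood apart, with values for 37.6% of its spots against 54.5% to 73.6% on the others, and with the widest spread. The standard deviation (SD) over genes, estimated from the median absolute deviation (MAD), was 0.33 there against 0.17 to 0.23. Between spots of the same gene the SD was 0.24 to 0.28 on the other arrays and 0.36 on AT-EAE array 2. Neuron marker genes fixed by name had values for 5 or 6 of 6 on every array, astrocyte markers for 3 or 4 of 4, and both oligodendrocyte markers (Mbp and Cnp) on all arrays. Microglia and macrophage markers had values for 4 or 5 of 6 on each array, meninges and fibroblast markers for 3 or 4 of 5, and the 1 T cell marker on the arrays, Cd4, had none.

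The first question was which members had a value in which cords. Trafficking genes had values more often than genes at large on every array, and the AT-EAE arrays held values for fewer of them than the control arrays. Of the 124 members, 119, 114, 107 and 78 had a value. These were 96.0%, 91.9%, 86.3% and 62.9% of the members, against 86.2%, 80.1%, 72.4% and 54.9% of all genes. The mean share of members over the control arrays was 94.0% ± 2.9 (SD, n = 2) and over the AT-EAE arrays 74.6% ± 16.5 (SD, n = 2), so most of the spread lay between the AT-EAE arrays. It fell by 19.4 percentage points, and that of all genes fell by 19.5 percentage points.

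**Figure D1:**
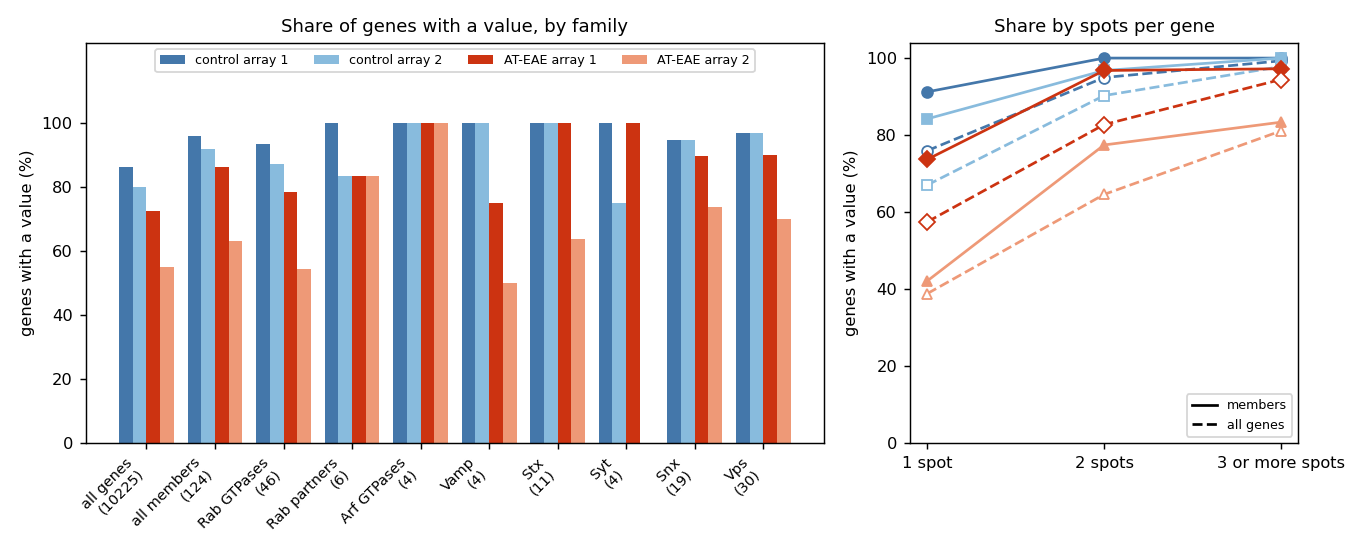
Share of genes with a value on each of the 4 arrays, for all genes, all members and each family (left, number of genes in parentheses), and by the number of spots per gene for members (solid lines) and all genes (dashed lines). The shares fall from control array 1 to AT-EAE array 2 for members and all genes alike, Syt genes have no value on AT-EAE array 2, and all 4 Arf genes have one on every array.

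Members with a value on all 4 arrays numbered 77, which is 62.1%, against 53.1% of all genes. Without AT-EAE array 2, 105 of 124 members had a value on the remaining arrays, against 7094 of 10225 genes (69.4%). The number of spots moved with these shares, with a mean of 1.98 spots per member and 1.81 per gene. Among single-spot genes, 91.2%, 84.2%, 73.7% and 42.1% of members had values, against 75.9%, 67.0%, 57.5% and 38.8% of all such genes. Members therefore lay above other genes also at 1 spot. For 3 or more spots the shares were 100%, 100%, 97.2% and 83.3% for members and 99.3%, 97.8%, 94.4% and 81.1% for all genes, which are close.

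The families' counts are given beside their number of spots, and differences between families were not tested. The 4 Arf genes, with a mean of 2.5 spots, including Arf1, which recruits the COPI coat at the Golgi, had values on every array. Of the 46 Rab GTPases, 43, 40, 36 and 25 had values, and the lowest of these shares was 54.3%. All 11 syntaxins had values on both control arrays and on AT-EAE array 1, and 7 of them on AT-EAE array 2. Sorting nexins kept 18, 18, 17 and 14 of 19, and Vps genes 29, 29, 27 and 21 of 30. The 4 synaptotagmins on the arrays were Syt1, the calcium sensor of fast transmitter release, and Syt3, Syt11 and Syt13. They had 4, 3, 4 and 0 values, each from a single spot, where 38.8% of all single-spot genes had a value on AT-EAE array 2.

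The pattern of a value on both control arrays and neither AT-EAE array was met by 9 of 124 members, against 935 of 10225 genes (9.14%). They were Rab23, Rab28, Rab2b, Rab33b, Rab40c, Snx29, Vamp4, Vps26b and Vps35. Rab23 acts in primary cilia and hedgehog signalling, Rab33b in the Golgi and autophagy, and Vamp4 is a SNARE of the trans-Golgi network. Vps35 and Vps26b are retromer subunits, and the retromer was split. Vps29 and Vps26a, the other form of the Vps26 subunit, had values on all 4 arrays. Rab40c was the 1 gene of these 9 with more than 1 spot, with values for 3 and 2 of its 3 spots on the control arrays and for none on the AT-EAE arrays. Rab11fip1, Rab19, Rab29 and Rab33a had a value on control array 1 alone. Counting these also, 13 of 124 members had values in control cord and in neither AT-EAE array, against 1517 of 10225 genes (14.8%).

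A further 28 of the 124 members lacked a value on AT-EAE array 2 alone, against 1665 of 10225 genes (16.3%). Of genes with values on all the other arrays, these were 28 of 105 members, against 1665 of 7094 genes. Among these members were the secretory Rab27a, the synaptic Rab3b, Rab4a of fast recycling, Rab8a of polarised secretion, Syt1, the endosomal SNARE Vamp3 and the ESCRT ATPase Vps4a. The reverse was rare. No member had values on both AT-EAE arrays and neither control array, against 0.127% of all genes. Rab20 and Snx19, 2 of 124 members, had 1 value each on an AT-EAE array and none in control. Of all genes, 82 of 10225 (0.802%) had 1 or 2 such values. Rab20, a GTPase of phagosomes, had 0.09 on the first AT-EAE array. Snx19 had 0.96 on the second, and each rested on a single spot. Rab38, Rab3d and the ESCRT-II gene Vps36, 3 of 124 members, had no value on any array, against 1219 of 10225 genes (11.9%).

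The second question was how far the members differed between the 2 extracts of an array. Most differed little. The median log2 ratio of the members lay within 0.03 of the array median on every array, at -0.00139, -0.00343, -0.01 and -0.03 relative to it. Members above and below the array median numbered 59 and 60, 56 and 58, 49 and 58, and 38 and 40. The MAD-based SD over members was 0.17, 0.23, 0.17 and 0.36, near that over all genes.

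Rab5c, a GTPase of early endosomes, was the 1 member with a ratio of at least 2-fold (1 on the log2 scale) on any array. Such ratios were held by 0 of 119 members on control array 1 (0.136% of all genes), 1 of 114 on control array 2 (0.391%), 0 of 107 on AT-EAE array 1 (0.365%) and 0 of 78 on AT-EAE array 2 (1.07%). At 1.5-fold the members numbered 2, 4, 2 and 6, against 1.69%, 3.29%, 2.14% and 9.86% of all genes, and their shares were 1.68%, 3.51%, 1.87% and 7.69%. These shares lay near the background. The members past 1.5-fold were Snx3 and Vps54 on control array 1, Rab5c, Syt1, Vamp3 and Vps8 on control array 2, and Snx14 and Vamp3 on AT-EAE array 1. On AT-EAE array 2 they were Arf1, Rab3il1, Snx14, Snx19, Vps53 and Vps9d1.

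**Figure D2:**
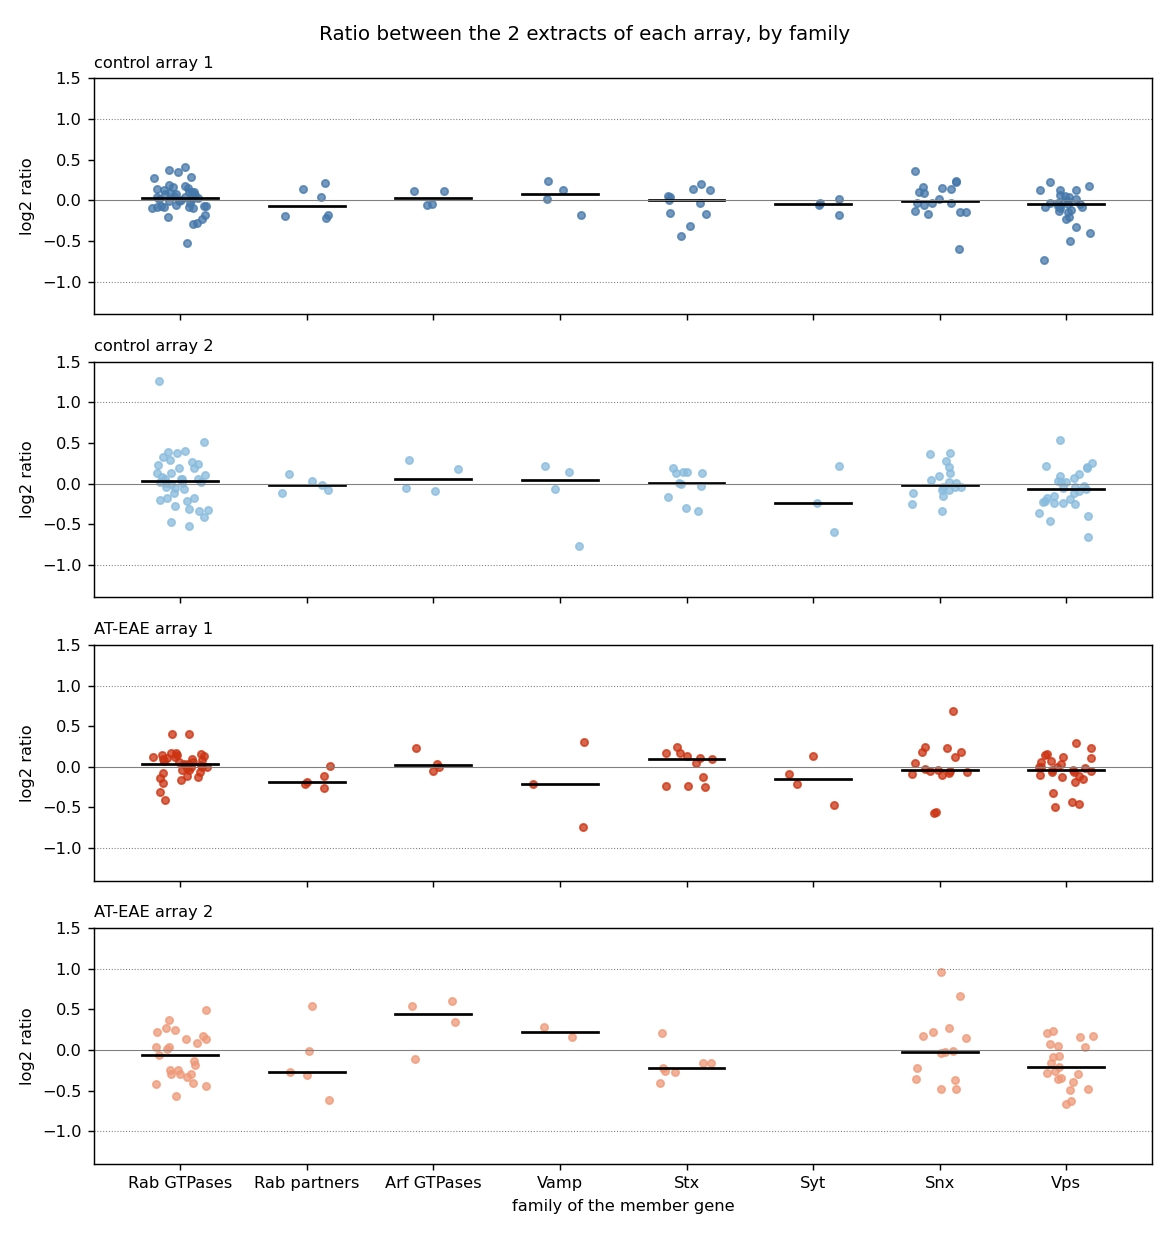
Log2 ratio between the 2 extracts of each array (vertical axis) for every member with a value, by family. Each point is 1 gene (mean over its spots), black bars are family medians and dotted lines mark 2-fold, which Rab5c alone passes, at 1.26 on control array 2.

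Rab5a, Rab5b and Rab5c are near-identical GTPases that direct fusion at the early endosome, and their ratios went different ways. The sequences of the clones were not analysed here, so signal from one of these genes on a spot of another cannot be told apart from its own. Rab5c was at 0.37, 1.26, 0.11 and -0.42. It was high on control array 2 and low on AT-EAE array 2, and its value of 1.26 was the highest of all genes on control array 2. Both of its spots were high there, at 0.95 and 1.58, and a single spot gave the value on AT-EAE array 2. Rab5a, from 3 spots, stayed near 0 at -0.08, 0.00, -0.01 and -0.18. Rab5b, from 1 spot, was low at -0.52, -0.42 and -0.40 and had no value on AT-EAE array 2.

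Among other GTPases of the endosome and lysosome, Rab7, which drives traffic to the lysosome, was at 0.13, 0.02, 0.06 and 0.25. The last value was the mean of spots at -0.67, 0.47 and 0.93, with a median of 0.47. Rab11a, of the recycling endosome, was at 0.08, 0.10, 0.14 and -0.29. Its relative Rab11b was at -0.28, -0.34, -0.11 and 0.04. One Rab11b spot, with a value on control array 2 alone, was at -0.76 and moved that mean. Rab25 was at -0.18, 0.23, 0.40 and -0.45, with values for 1 of its 2 spots. It was the second highest member with values on all 4 arrays on AT-EAE array 1.

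Most of the GTPases listed here, of the Golgi and of the path from the endoplasmic reticulum, lay farthest from 0 on AT-EAE array 2. Arf1 was at -0.06, 0.18, 0.00210 and 0.60. Arf4 was at 0.11, 0.29, -0.05 and 0.55. Both were high on AT-EAE array 2, as was Arf3 at 0.35, while Arf2, from 1 spot, was at -0.11. The high Arf1 value came from 2 spots that differed, at 0.24 and 0.96, and the Arf4 spots were at 0.51 and 0.58. Rab6a, of retrograde Golgi traffic, was at 0.10, -0.06, 0.10 and 0.49, again highest on AT-EAE array 2. Rab1a, of transport from the endoplasmic reticulum, was lowest there, at 0.02, 0.000145, -0.08 and -0.40. Rab2a was at -0.10, 0.13, 0.03 and 0.22, and the Golgi syntaxin Stx5a at 0.12, 0.13 and 0.17 with no value on AT-EAE array 2. Rab1b, from 1 spot, was at 0.05, -0.18 and 0.11 and also had none there. Rab6b went otherwise, at 0.02, -0.52, 0.02 and 0.13, and was the lowest member with values on all 4 arrays on control array 2. Rab33b was at 0.35 and -0.47 on the control arrays, where alone it had values. On AT-EAE array 2 the Golgi GTPases thus went both ways, within an array whose spots of 1 gene differed by an SD of 0.36.

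Members of synaptic vesicles did not move together. Rab3a, the main Rab of synaptic vesicles, was at 0.27, 0.51, 0.13 and -0.57. It was among the 3 highest members with values on all 4 arrays on both control arrays. Vamp2, the synaptic vesicle SNARE, was at 0.23, -0.06, 0.31 and 0.28, and Syt1 at -0.18, -0.60 and -0.08. Rab3b was at 0.11, -0.04 and -0.20, and Syt11 at -0.03, -0.24 and -0.21, both without a value on AT-EAE array 2. Rab3a, Vamp2, Syt1 and Syt11 rested on 1 spot each. The neuron markers on the arrays had medians of -0.07, 0.05, -0.01 and -0.04 relative to the array median, and their part in the ratios of the synaptic genes was not tested. Other marker lists moved more on some arrays, relative to the array median. The astrocyte median was 0.13, -0.03, -0.10 and 0.28, and that of the 2 oligodendrocyte markers 0.14, -0.14, -0.39 and 0.02. The microglia and macrophage median was 0.06, 0.01, -0.28 and -0.03, and that of the meninges and fibroblast markers -0.04, -0.07, -0.44 and 0.35. The part of these cell types in the members' ratios was not tested.

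Sorting nexins and SNAREs of the endosome included some of the most extreme ratios. Snx14, an endoplasmic reticulum protein of lipid handling, was at -0.04, 0.38, 0.69 and 0.66, and was the highest member with values on all 4 arrays on both AT-EAE arrays. Snx3, which works with the retromer, was at -0.61, 0.37, 0.18 and -0.03, low on the first array alone. Snx1 was at 0.22, -0.25, -0.08 and -0.37, and Snx2 at 0.10, -0.04 and 0.18, each from 1 spot. These single-spot values have no spot-to-spot check.

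Snx5 and Snx9 were low on AT-EAE array 1, at -0.57 and -0.55, and lay between -0.14 and 0.01 on the other arrays. The Snx5 value came from 3 spots at -0.11, -0.27 and -1.35, so a single spot set it, and the median over spots was -0.27. Snx13 was at 0.36, -0.04, 0.23 and 0.18. The late endosomal syntaxin Stx7 was at -0.17, -0.16, -0.24 and 0.21, and 1 of its 4 spots was apart on all 4 arrays, at -0.69, -1.002, -0.44 and -0.44. Vamp8, a SNARE of lysosomal fusion, was at 0.13, 0.14, -0.21 and 0.16. Vamp3 was at -0.18, -0.77 and -0.74, with its first spot low on each of those arrays at -0.54, -1.14 and -0.74. Its second spot was at 0.18 and -0.40 on the control arrays. That spot had no value on AT-EAE array 1, so the first spot alone gave the gene's value there.

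**Figure D3:**
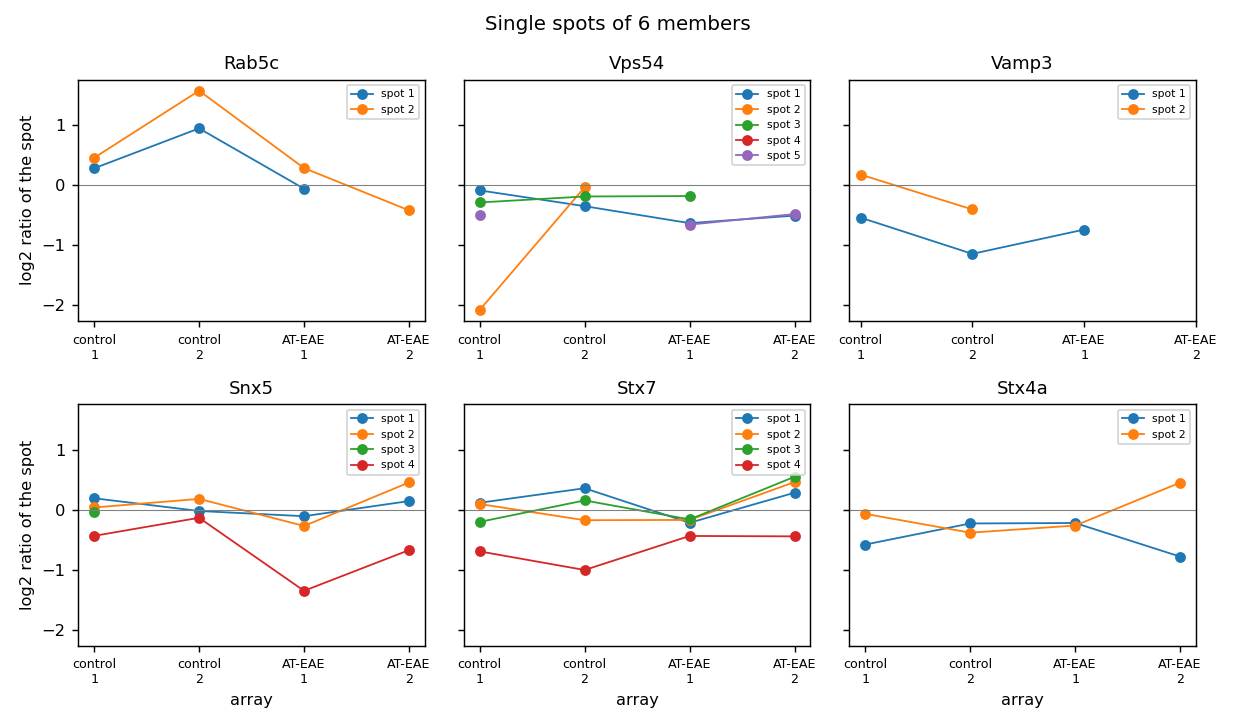
Log2 ratios of the single spots of 6 members (vertical axis) on the 4 arrays (horizontal axis), with lines joining values of the same spot. The Rab5c spots are both high on control array 2, while 1 spot sets the low values of Vps54 on control array 1 (-2.08) and of Snx5 on AT-EAE array 1 (-1.35).

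The GARP complex tethers vesicles returning from endosomes to the Golgi. Vps54 was at -0.74, -0.19, -0.49 and -0.49. A spot at -2.08 lowered the value on control array 1, where the median over spots was -0.39. Vps53 was at -0.01, -0.06, -0.06 and -0.66, the last from 1 spot. Vps51, with 8 spots, was at -0.07, -0.03, -0.19 and -0.28, and Vps52 at -0.03, -0.25 and -0.00334. Apart from Vps54, and Vps53 on AT-EAE array 2, the values of these genes were no farther from 0 than the SD between spots on their array.

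In the HOPS and CORVET tethers, which act at endosomes and lysosomes, Vps8 was low at -0.41, -0.66 and -0.45 with no value on AT-EAE array 2. Vps16 was at 0.13, 0.54, 0.06 and -0.07, highest on control array 2, and the 5-spot gene Vps41 at -0.05, -0.17, -0.10 and 0.17. The retromer subunit Vps29 was above 0 throughout, at 0.06, 0.22, 0.29 and 0.22, and Vps26a was at 0.04, -0.22, -0.11 and -0.21. Vps35 was at -0.08 and -0.39 in control, where alone it had values. Vps8, Vps16, Vps29 and Vps35 rested on 1 spot each, so their ratios have no spot-to-spot check. The ESCRT ATPases Vps4a and Vps4b lay between -0.16 and 0.17 wherever they had values.

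Single spots past 2-fold numbered 1 of 223 member spots on control array 1, 3 of 206 on control array 2, 1 of 182 on AT-EAE array 1 and 0 of 122 on AT-EAE array 2. The background over all spots with 1 gene was 0.28%, 0.882%, 0.403% and 1.51%. The 5 spots belonged to Vps54, Rab5c, Stx7, Vamp3 and Snx5. Rab5c was the 1 gene among them whose mean over spots also passed 2-fold.

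The third question was whether a member had the same ratio on all 4 arrays. The arrays share no extract. Such a ratio follows the channel only if the numerator channel is the same on all arrays, which is not stated. It is no comparison of AT-EAE with control cord. With the numerator channel not stated, a sign shared by the arrays gives no direction for a gene in cord. No member passed the test as designed, with limma and Benjamini-Hochberg adjustment over the 5429 genes with values on all 4 arrays. Of 77 members tested, 0 were called at an adjusted p below 0.05, against 0.0184% of all genes, which is the serine hydroxymethyltransferase gene Shmt2 alone. At an unadjusted p below 0.05 there were 6 members (7.79%), against 11.2% of all genes. Since each array is 1 measurement of its pair of extracts and nothing says how the pools were drawn, these p-values measure only the spread between arrays.

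The nearest was Vps9d1, a gene with a domain that activates Rab5 proteins, at -0.50, -0.46, -0.44 and -0.62. It was below 0 on all 4 arrays by like amounts, and whether this follows the channel was not tested. It had a mean of -0.51 (SE 0.10) and an adjusted p of 0.107 by limma, from 1 spot. Among alternatives that kept all 4 arrays, it passed only with the array number as a replicate block, at a limma adjusted p of 0.0375. The others gave limma adjusted p-values of 0.0691 to 0.137. The block fit called 0.755% of all genes. It gave Vps9d1, Vps54 and Snx14 the same SE of 0.14, so its p followed the mean and not the gene's own spread. The Vps9d1 mean was -0.55 without AT-EAE array 1 and -0.46 without AT-EAE array 2. Vps54 had a mean of -0.48 (SE 0.11) and a limma adjusted p of 0.202, and Snx14 a mean of 0.42 (SE 0.10) and a limma adjusted p of 0.216. The other 3 with an unadjusted p below 0.05 were Vps72, the plasma membrane syntaxin Stx4a and Snx17, which recycles lipoprotein receptors. Vps72 was at -0.21, -0.24, -0.32 and -0.36, Stx4a at -0.32, -0.30, -0.24 and -0.16, and Snx17 at 0.16, 0.21, 0.25 and 0.28. Each kept its sign on all 4 arrays, but the spots of Stx4a did not, at -0.78 and 0.45 on AT-EAE array 2. Snx17 rested on 1 spot, and Vps72 had a value for 1 of its 2 spots on each AT-EAE array.

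**Figure D4:**
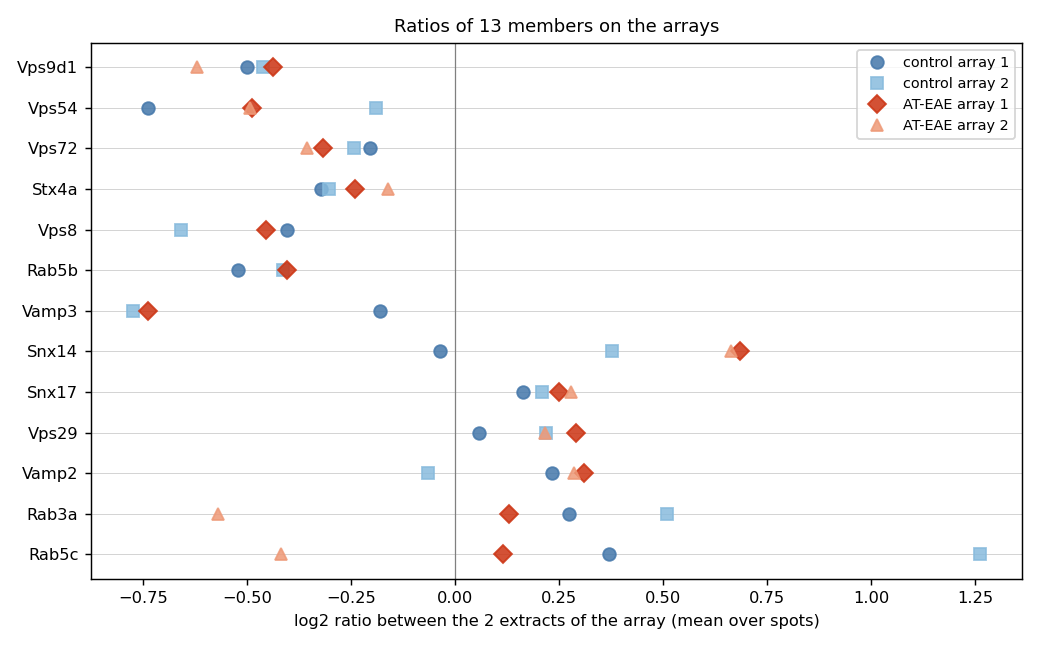
Log2 ratios of 13 members (horizontal axis, mean over spots) on the 4 arrays. Vps9d1 lies between -0.62 and -0.44 on all 4, Snx17 between 0.16 and 0.28, and Rab5c and Rab3a span from below 0 on AT-EAE array 2 to their highest value on control array 2.

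Across members, ratios on different arrays were related to different degrees. Over 105 members Pearson's r was 0.51 between control array 2 and AT-EAE array 1, and over 7125 genes it was 0.31. Between control array 1 and AT-EAE array 2 it was 0.21 over members and 0.30 over all genes, and between control array 1 and AT-EAE array 1 it was 0.32 and 0.15. Within groups it was 0.21 over members and 0.11 over all genes between the control arrays, and 0.25 and 0.19 between the AT-EAE arrays. Spearman's rank correlation was 0.08 over members and 0.10 over all genes between the control arrays, the reverse order. Between the AT-EAE arrays it was 0.19 and 0.16. Between control array 2 and AT-EAE array 2 Pearson's r was 0.00018 over 77 members and 0.0018 over 5498 genes. The arrays of a pair share no extract but do share the spots, and genes are not independent replicates. The sign of a correlation rests on the same numerator channel on both arrays, which is not stated.

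The fourth question was whether extracts differed more from each other in AT-EAE than in control cord. For each member the absolute ratio, after subtraction of the array median, was averaged over the 2 arrays of a group. The median of this size was 0.13 in control and 0.18 in AT-EAE over 77 members, and 0.14 and 0.18 over the 5429 genes. The median log2 of AT-EAE over control was 0.67 over members, with 51 of 77 above 0, and 0.35 over all genes, with 60.6% above 0. Without control array 2 the medians were 0.73 for members and 0.73 for all genes, and with ratios as deposited 0.48 and 0.38. Without AT-EAE array 2 it turned to -0.27 for members and -0.37 for all genes, so that array decided the direction. After division by the spread of each array it was 0.22 for members and 0.03 for all genes, with 51.9% of members and 51.1% of all genes above 0.

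No member passed the limma test of this difference, with 0 of 77 called against 0.0184% of all genes, again Shmt2 alone. At an unadjusted p below 0.05 there were 2 members (2.60%), against 3.26% of all genes. Snx14 had a mean absolute ratio of 0.20 in control and 0.71 in AT-EAE, a difference of 0.50 (SE 0.14, limma adjusted p = 0.986). Snx3 had 0.48 in control and 0.11 in AT-EAE. Rab5c had 0.82 and 0.22, with a limma adjusted p of 0.986.

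**Figure D5:**
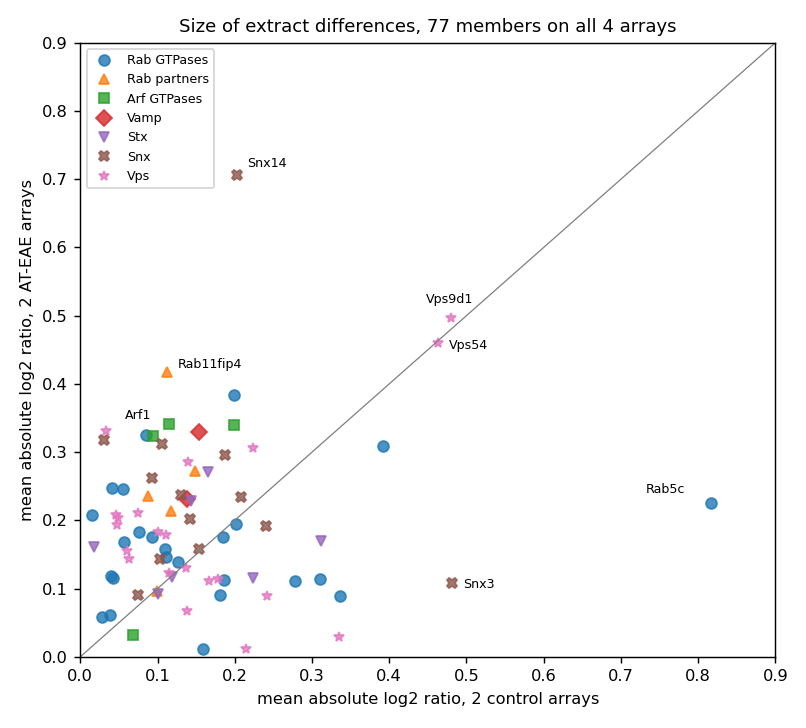
Mean absolute log2 ratio on the 2 control arrays (horizontal axis) against that on the 2 AT-EAE arrays (vertical axis) for the 77 members with values on all 4 arrays, after subtraction of the array median. The grey line marks equal sizes, with Snx14 far above it (0.20 against 0.71) and Rab5c (0.82 against 0.22) and Snx3 (0.48 against 0.11) far below.

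Further trafficking genes with other names, among them the SNARE disassembly factors, clathrin and its adaptors, and the COPI and COPII coats, were listed by name, and 74 of 91 were on the arrays. They had values for 72, 71, 69 and 57 genes, or 97.3%, 95.9%, 93.2% and 77.0%. On every array the share was above that of the members. By limma, 0 of 57 had a ratio shared by all 4 arrays and 0 of 57 a different absolute ratio. At an unadjusted p below 0.05 there were 1 higher and 8 lower for the shared ratio (15.8%, against 11.2% of all genes), and 0 for the absolute ratio (against 3.26% of all genes). The SNARE ATPase gene Nsf was at 0.05, -0.24, 0.31 and 0.98, highest on AT-EAE array 2, and the Rab escort protein gene Chm at 0.05, -0.36, -0.15 and -0.91, lowest there. Both were chosen after their values were seen.

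Promoter sequence was a feature that the choice by symbol did not use. RefSeq promoters (GRCm38.p6, 250 bases before to 50 after a start site) were matched for 99 of the 124 members and 8110 genes on the arrays. The word TCACGTGA, a palindrome known as the core of the CLEAR element bound by TFEB, a regulator of lysosome genes, was found in 7 of the 99 members (7.07%) and in 2.22% of the 8110 genes. It reads the same on both strands. The 7 were Rab21, Rab24, Rab5a, Stx6, Vps16, Vps26a and Vps33a. The windows that lie before the start site are shown because they are the shared letters behind this count, 5′ to 3′ on the gene's strand, with the palindrome in capitals. Rab24, where the word does not lie wholly before the start site, is not shown.
Rab21, chr10:115315592-115315648, minus strand: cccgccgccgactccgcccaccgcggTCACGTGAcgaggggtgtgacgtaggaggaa
Rab5a, chr17:53479112-53479171, plus strand: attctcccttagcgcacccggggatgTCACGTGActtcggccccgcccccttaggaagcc
Stx6, chr1:155158591-155158650, plus strand: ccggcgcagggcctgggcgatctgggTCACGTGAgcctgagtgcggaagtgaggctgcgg
Vps16, chr2:130424275-130424319, plus strand: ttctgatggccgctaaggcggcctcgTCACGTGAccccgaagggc
Vps26a, chr10:62486717-62486776, minus strand: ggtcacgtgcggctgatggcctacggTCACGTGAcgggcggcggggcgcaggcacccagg
Vps33a, chr5:123573016-123573070, minus strand: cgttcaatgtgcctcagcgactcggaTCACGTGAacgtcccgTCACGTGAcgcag

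Vps33a held the palindrome at 2 places in its promoter, and Vps26a had it in the promoters of 2 start sites, of which 1 is shown. This word was singled out after 9 words had been counted on both strands, of which TCACGTGA, TCACGTG and CACGTG overlap. TCACGTG was in 10.1% of members against 7.07% of the genes on the arrays, CACGTG in 15.2% against 11.7%, and the GC box GGGCGG in 74.7% against 66.2%. CCGGAAG was in 15.2% against 19.0%, TGACGTCA in 2.02% against 3.38%, TGACGTC in 6.06% against 6.03%, the NRF-1 motif in 1.01% against 2.22% and GATTGG in 20.2% against 23.2%. These are matches of letters and not sites of binding.

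All 7 members with the palindrome had values on all 4 arrays, against 54 of 92 members whose promoter lacked it. Their mean was 2.14 spots per gene against 1.95, and the contrast was not tested. Over all genes the shares were 65.0% of 180 genes with it and 53.4% of 7930 without it, at a mean of 2.05 and 1.82 spots per gene. Among them, Vps16 was the second highest member with values on all 4 arrays on control array 2, at 0.54. Rab24, which acts in autophagy, was at -0.29, 0.39, 0.03 and 0.08, and Rab21, of early endosomes, at 0.01, -0.06, 0.06 and 0.37. Stx6, a syntaxin of the trans-Golgi network, was at -0.15, 0.15, 0.13 and -0.40, and Vps33a, of the HOPS tether, at -0.14, -0.22, -0.07 and 0.07. They shared no direction on any of the 4 arrays.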

How the data were processed

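RNA of spinal cord was hybridized to 4 2-colour cDNA arrays of 28704 spots. The authors deposited 1 value per spot and array, a log2 ratio of normalized green and red signals, per the labels, with the base assumed. How spots were filtered, background-corrected and normalized, and with which software, is not given in the sources used here. Of the spots, 18511 had 1 gene, 937 several and 9256 none. Symbols of 18267 spots were updated by gene identifier (GRCm38.p6 table). Ratios of a gene's spots were averaged, and 10 spots of several genes with a matching symbol were left out. Columns of no sample numbered 0.

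The members and lists were chosen with earlier results of these data known. Members named in the text are those past 2-fold on an array, the 3 highest and 3 lowest per array among those with values on all 4, those with values on both arrays of 1 group only, and a fixed list of synaptic, endosomal and Golgi genes. Further members named complete a family, complex or count, or were chosen after their values were seen. AT-EAE and control levels were not compared, since ratios were within groups. limma 3.58.1 (R 4.3.3) tested, by lmFit and eBayes over 5429 genes, the mean ratio of the 4 arrays and the group difference of the absolute ratio, each with Benjamini-Hochberg adjustment at 0.05. The fits were tested on simulated data. With 2 arrays a group, precision is limited by their number. Python 3.11.15, numpy 2.4.6, pandas 2.3.3 and matplotlib 3.10.9 were used.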

Additional observations from a re-analysis of the deposited data

How the results depend on the processing

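Counted over spots, the share of members with values was 91.0%, 84.1%, 74.3% and 49.8% over the 4 arrays, and for members with at least 2 spots it was 100%, 98.5%, 97.0% and 80.6%. At 1.5-fold, members past the threshold rose to 2, 4, 2 and 6 on control arrays 1 and 2 and AT-EAE arrays 1 and 2. After subtraction of the array median, 1 member, Snx19, passed 2-fold on AT-EAE array 2. With the array number as a replicate block, 1 member (Vps9d1, limma adjusted p = 0.0375) had a shared ratio, and 41 genes against 1 in all. The labels share only extract numbers, and deviations of like-numbered arrays correlated at -0.29. With the crossed replicate block, chosen after seeing the data, 0 members and 1 gene were called. Neither block called a member for the absolute ratio. Leaving out 1 array in turn gave 0 to 1 members and 3 to 169 genes for the shared ratio, the 1 being Vps9d1 without AT-EAE array 1. It gave 0 members and 0 to 1 genes for the absolute ratio, and a median log2 size ratio of -0.27 to 1.01, the lowest without AT-EAE array 2. The arm left with 1 array is then assumed to vary like the other. With values on at least 3 arrays, 13 genes and 0 members had a shared ratio, and with ratios as deposited or scaled 0 genes had a different absolute ratio. Of 162 ratios of the 48 named members, 2 moved by more than the SD between spots with the median over spots, Snx5 on AT-EAE array 1 (-0.27) and Vps54 on control array 1 (-0.39). Signal over background was not analysed here.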
